A study of Mus musculus with 9 samples.

Results

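Transcripts of 35 nuclear receptor genes were examined in brown adipose tissue, the heat-producing fat of mice, leaving aside the receptors of the circadian clock and the Nr4a group. They were picked by gene symbol from the receptor superfamily. Of the 35, 33 were listed among the 16937 genes of the deposited tables, and Esr2 and Pgr were not listed. The tissue came from adult mice in 3 groups of 3 libraries each. WT RT is C57Bl/6J wild type held at a room temperature of 23 °C, and WT Cold is wild type placed at 4 °C for 8 h. GCN2 KO Cold is the group labelled as carrying a whole-body deletion of Gcn2 (Eif2ak4), the kinase that senses amino acid shortage, on the same background and after the same exposure. The deletion described is not limited to fat, so a difference is not tied to the adipocyte. No knockout group at room temperature was analysed here. The study asked what part GCN2 has in holding core body temperature in the cold, and the brown fat response was one part of it. The receptors are considered here because many of them set the transcription of lipid and mitochondrial genes.

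Nuclear receptors are transcription factors, most of which are switched by a small lipophilic ligand such as a steroid, a thyroid hormone, a retinoid, an oxysterol or a fatty acid. Many bind DNA as a dimer with a retinoid X receptor (RXR) and act through exchange of corepressors for coactivators. In brown fat, PPAR gamma maintains the adipocyte, PPAR alpha drives fatty acid oxidation, the estrogen-related receptors (ERRs) act with the coactivator PGC-1 alpha on mitochondrial genes, and thyroid hormone made locally by the deiodinase Dio2 acts on Ucp1, the uncoupling protein.

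Reads assigned to genes totalled 30457428 to 30768064 in WT RT, 28776085 to 28947157 in WT Cold and 27058799 to 28766121 in GCN2 KO Cold. Levels below are scaled CPM, the recovered reads relative to library sizes set by trimmed-mean scaling over the 9 libraries, and values of a group are listed for its libraries A, B and C in that order. Eif2ak4 was at 10.3, 11.6 and 12.99 scaled CPM in WT RT, at 6.19, 8.18 and 8.42 in WT Cold and at 12.6, 13.6 and 12.8 in GCN2 KO Cold. The targeted transcript was therefore no lower in GCN2 KO Cold than in WT Cold (log2 fold change 0.78 ± 0.15 SE, limma adjusted p = 0.0932). Against WT RT it was at 0.19 ± 0.12 (0.26) in GCN2 KO Cold and lower in WT Cold (-0.59 ± 0.16, 0.0294). Whole-gene reads thus do not bear out that label, and reads per exon were not examined. The group is written by its label, as GCN2 KO Cold or the third group, with no statement that its libraries lack the transcript. The library codes of WT RT have a different prefix from those of both cold groups, so that a difference in preparation and the cold cannot be told apart. All 9 brown adipocyte markers were listed, and their sum was 18132 to 20853 scaled CPM in WT RT, 24681 to 26475 in WT Cold and 31602 to 32837 in the third group. The sum is weighted to abundant genes such as Ucp1 and Fabp4, and in WT Cold vs WT RT 3 of the 9 markers were called higher and 1 lower, Plin1 (-0.34, limma adjusted p = 0.0256), with a list median of 0.11. Without WT Cold library B, 1 of the 9 was called, and without WT RT library B or C, 2. Summed leukocyte markers ran from 288 to 471 scaled CPM in WT RT, from 128 to 179 in WT Cold and from 107 to 166 in the third group, stromal markers from 922 to 1095, from 759 to 835 and from 539 to 693, and skeletal muscle markers from 2361 to 2679, from 2211 to 3478 and from 299 to 1342. Red blood cell markers went the other way, from 239 to 330 in WT RT, from 578 to 2243 in WT Cold and from 1172 to 2203 in the third group, with 5 of 5 called higher against WT RT in both, though 0 in WT Cold without WT RT library A, B or C, and their part in the results was not tested. In a tissue lysate, fewer cells of a type and less RNA per cell cannot be told apart.

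The stretch upstream of the start is shown for the members that changed most, Esrrb and Esr1, and for 2 abundant members that changed less, Esrra and Ppara, because the pairs differ in CG content. Each run is the 250 bases before a RefSeq start (GRCm38.p6), written 5′ to 3′ on the gene's strand, with every CG dinucleotide in capitals. The first Esrrb start is preceded by chr12:86360867-86361116 (plus strand), the first Esr1 start by chr10:4611739-4611988 (plus), the Esrra start by chr19:6921809-6922058 (minus) and the Ppara start by chr15:85735526-85735775 (plus).
Esrrb: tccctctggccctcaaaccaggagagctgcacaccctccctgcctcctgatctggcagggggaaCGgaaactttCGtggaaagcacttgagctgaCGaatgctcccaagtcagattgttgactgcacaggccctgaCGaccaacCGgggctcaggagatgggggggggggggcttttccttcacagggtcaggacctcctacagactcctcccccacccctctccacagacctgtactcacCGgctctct
Esr1: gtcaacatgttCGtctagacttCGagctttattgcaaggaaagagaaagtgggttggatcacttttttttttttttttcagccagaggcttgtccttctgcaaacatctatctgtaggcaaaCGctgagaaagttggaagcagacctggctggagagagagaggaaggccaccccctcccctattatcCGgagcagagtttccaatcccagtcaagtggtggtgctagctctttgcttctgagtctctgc
Esrra: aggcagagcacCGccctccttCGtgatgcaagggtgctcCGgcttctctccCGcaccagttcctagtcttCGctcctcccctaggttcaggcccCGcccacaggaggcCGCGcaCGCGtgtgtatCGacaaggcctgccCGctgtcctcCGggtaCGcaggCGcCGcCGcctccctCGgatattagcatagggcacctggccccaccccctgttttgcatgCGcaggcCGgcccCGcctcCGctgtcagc
Ppara: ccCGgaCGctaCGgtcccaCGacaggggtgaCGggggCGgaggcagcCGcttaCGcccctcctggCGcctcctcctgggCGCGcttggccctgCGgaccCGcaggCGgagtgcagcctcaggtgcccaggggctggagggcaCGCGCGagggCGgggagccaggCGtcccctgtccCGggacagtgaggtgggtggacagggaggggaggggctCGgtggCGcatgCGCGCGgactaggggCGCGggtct
The Esrrb and Esr1 windows held 6 and 4 CG, and the windows at the second start of each gene held 3 and 7. The Esrra and Ppara windows held 22 and 27, counts that 14.8% and 8.56% of all 32851 windows reached. The median was 9.5 CG over the 52 windows of the 31 members with an entry and 6 over all windows. Members not called in WT Cold vs WT RT had windows with as few as 1 CG (Nr2f2) and as many as 40 (Rxra). The windows of the abundant Nr1h3 held 7 and 8, so the pairs shown set no rule for the other members.

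The half-site that many nuclear receptors bind is AGGTCA, and it was searched on both strands. It was found in 9 of the 52 member windows, which belong to 8 genes (Nr1h4, Nr5a2, Nr6a1, Pparg, Rarg, Rxra, Rxrg and Thrb), and in 14% of all windows. The contexts in Rarg (chr15:102257730-102257759, minus), Rxrg (chr1:167618165-167618194, plus) and Pparg (chr6:115361104-115361133, plus) are shown with the half-site in capitals, which in Rarg reads as TGACCT, its reverse complement.
Rarg: agcccaggacacTGACCTctgccagctctg
Rxrg: atcggggttgaaAGGTCAgctgaaagcttc
Pparg: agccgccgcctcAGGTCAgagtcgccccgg
The longer ERR element TCAAGGTCA and the direct repeat of the half-site with a single base between, the type that PPAR-RXR pairs bind, both contain the half-site and were in 0 of the 52 member windows and in 0.387% and 0.0335% of all windows. The cAMP response element TGACGTCA was in 0 of the 52 and in 1.55% of all windows. A match in letters is a description of the window and not evidence of binding.

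The receptors spanned a wide range of levels. Compared per length as RPKM (scaled CPM divided by the exon length in kilobases), the highest in WT RT was Pparg at 77.3 ± 7.86 (SD, n = 3 for all levels), followed by Esrra at 34.3 ± 3.88, Ppara at 30.4 ± 0.78 and Nr1h3, the liver X receptor (LXR) alpha, at 28.7 ± 1.77. The libraries of Pparg lay above those of Esrra without overlap, whereas Esrra, Ppara and Nr1h3 overlapped their neighbours in this order. A second tier at 11.4 to 18.2 RPKM held Nr2f6, Rxra, Nr1h2, Thra, Rxrb, Rxrg and Nr3c1. Hnf4a stood between that tier and the rest at 6.69 ± 1.67, overlapping neither neighbour. The other members ran from 4.00 for Rarg down to 0.29 ± 0.16 for Esrrb and 0.078 ± 0.012 for Rorb, and in that range most neighbours overlapped.

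**Figure D1:**
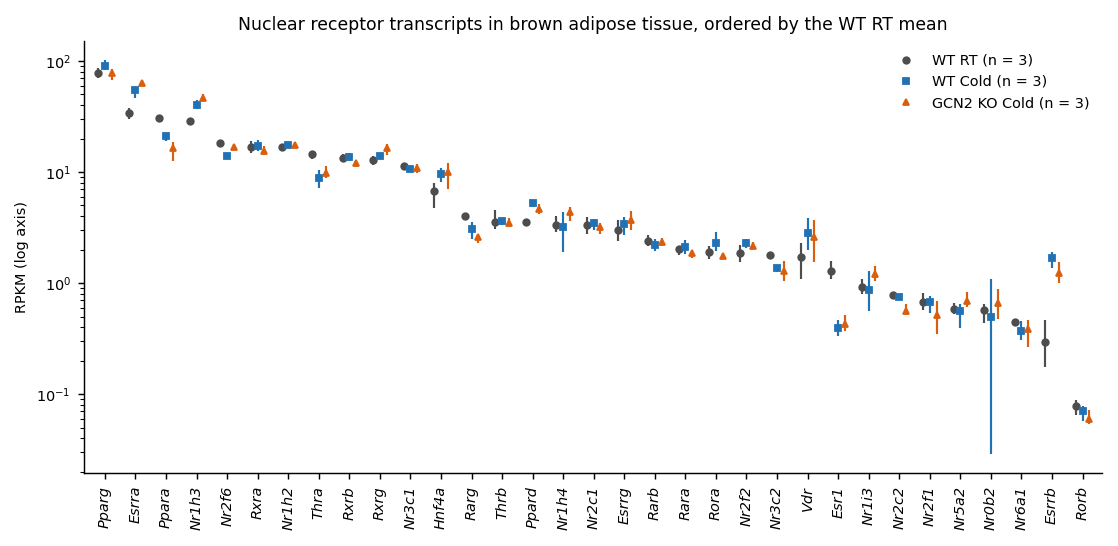
RPKM of the 33 listed members (log axis) in the 3 groups, ordered by the WT RT mean. Points are means of 3 libraries and bars run from the lowest to the highest library. Pparg is highest at 77.3 and Rorb lowest at 0.078 in WT RT, and Esrrb and Esr1 are the members whose cold groups stand farthest from WT RT.

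Between WT Cold and WT RT, a minority of the receptors differed. A member was called at a limma adjusted p under 0.05 over all genes of the table. In WT Cold vs WT RT, 9 of 33 members (27.3%) were called, 4 higher (Esrrb, Esrra, Ppard and Nr1h3) and 5 lower (Esr1, Thra, Ppara, Nr3c2 and Nr2f6), against 27.7% of the 16679 genes tested, so the receptors were called about as often as genes in general. Esrrb and Esr1 also passed the study's fold threshold, an absolute log2 fold change over 1, which 8.14% of all genes passed. The libraries of WT Cold and WT RT did not overlap for 11 members, against 45.5% of all genes. The median log2 fold change of the members was 0.06, against 0.00 over all genes, and the median absolute change was 0.23 against 0.33. DESeq2 called 10 members, against 29.7% of genes, adding Vdr (adjusted p = 0.0392) and Hnf4a (0.0288) and losing Nr3c2, and edgeR's quasi-likelihood test called 9, against 27.6%.

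Between the cold groups, none of the receptors passed the test. In GCN2 KO Cold vs WT Cold, 0 of 33 members were called by limma, by edgeR's quasi-likelihood test or by DESeq2, against 0.405%, 0.27% and 3.29% of the 16312 genes tested. At an unadjusted p under 0.05 there were 4 members (Ppara, Rora, Nr2c2 and Nr2f6), against 15.3% of all genes, and on the normalized counts of the table the libraries of these 4 did not overlap, against 22% of all genes. On scaled CPM there were 6 such members, Esrra and Rxrg being added by a narrow gap. The smallest adjusted p was 0.18, for Nr2f6 (log2 fold change 0.28 ± 0.08 SE). The 95% interval lay within a log2 fold change of 1 either way for 29 members, and within 0.5 for 14, so that a difference of 2-fold or more was outside the interval for all but Nr1h4, Nr1i3, Nr2f1 and Nr0b2. Smaller differences lay within the intervals, and a missed threshold does not show that the groups were alike.

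The comparison of the libraries labelled GCN2 KO Cold with WT RT, in which the genotype label and temperature differ together, called 10 of 33 members (30.3%), against 34.2% of 16560 genes. The higher ones were Esrrb, Esrra, Nr1h3, Ppard and Rxrg, and the lower ones Esr1, Ppara, Rarg, Thra and Nr2c2. Both comparisons with WT RT share those 3 control libraries, so their values are given side by side and are not independent of each other. Esrrb and Esr1 passed the fold threshold here too, against 10.6% of all genes, and the libraries did not overlap for 12 members, against 49.2%, or for 11 on scaled CPM, without Nr1h2. When counts were scaled to library totals in place of size factors, 13 members were called, 3 higher and 10 lower, with Ppard and Rxrg no longer among them. Over all genes that scaling called 38.1%, of which 23.6% were higher, so the members' count is near the rate over all genes. DESeq2 called 11 members, against 34.4% of genes, adding Hnf4a as higher (adjusted p = 0.0311), edgeR called 10, against 34.2%, and limma with all 3 groups in 1 fit called 11, adding Nr3c2 as lower (0.0306).

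**Figure D2:**
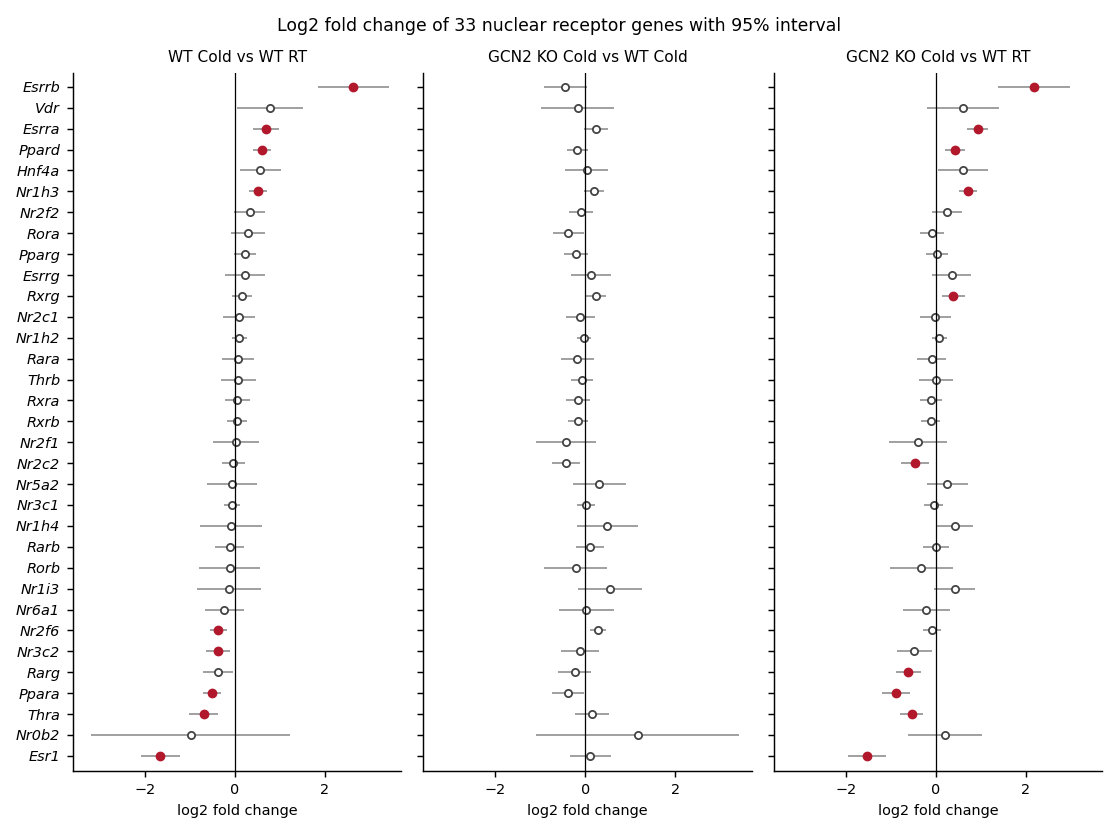
Log2 fold change of each of the 33 members in the 3 comparisons, with its 95% interval as a bar. Filled red points passed a limma adjusted p under 0.05, 9, 0 and 10 members from left to right. Esrrb is at 2.63, -0.45 and 2.18 and Esr1 at -1.65, 0.11 and -1.54.

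Among the ERRs, constitutively active receptors of mitochondrial and oxidative genes, the rarest member in WT RT moved most. Esrrb (chr12:86361117-86521628 in GRCm38, as for all gene coordinates here) was at 1.07, 1.41 and 2.85 scaled CPM in WT RT, at 11.5, 10.5 and 8.32 in WT Cold and at 6.05, 6.97 and 9.47 among the libraries labelled GCN2 KO Cold. Every cold library lay above every WT RT library, while the cold groups overlapped. Esrrb rose 6.19-fold in WT Cold (log2 fold change 2.63 ± 0.34 SE, limma adjusted p = 0.00177) and 4.53-fold against WT RT in the third group (2.18 ± 0.35, 0.00246), and GCN2 KO Cold vs WT Cold gave -0.45 with an interval from -0.93 to 0.03 (0.353). Esrra (chr19:6910977-6921813), the abundant ERR, was at 152, 133 and 167 scaled CPM in WT RT, at 258, 255 and 203 in WT Cold and at 284, 259 and 297 in the third group. It rose 1.62-fold in WT Cold (0.69 ± 0.12, 0.00546) and 1.90-fold in the third group against WT RT (0.93 ± 0.10, 4.68e-04), again with no overlap with WT RT. Esrrg, the third ERR, was not called in any comparison (0.23, 0.12 and 0.35). In RPKM the ERR sum went from 37.6 ± 4.63 in WT RT to 59.4 ± 6.90 in WT Cold and 68.8 ± 4.43, and Esrra made up 91.4% ± 1.04, 91.3% ± 1.64 and 92.8% ± 0.80 of it. The share of Esrrb was 0.76% ± 0.33, 2.81% ± 0.15 and 1.80% ± 0.37, so that Esrra remained the main ERR transcript by far.

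The 3 PPARs, fatty acid receptors that pair with an RXR, went in different directions. Ppara (chr15:85734983-85802819) was at 117, 114 and 120 scaled CPM in WT RT, at 82.4, 72.8 and 86.6 in WT Cold and at 48.4, 69.2 and 71.4 among the libraries labelled GCN2 KO Cold. The 3 groups did not overlap. Ppara was 1.42-fold lower in WT Cold (log2 fold change -0.51 ± 0.08, limma adjusted p = 0.00445) and 1.85-fold lower in the third group than in WT RT (-0.88 ± 0.14, 0.00218), whereas the step between the cold groups, -0.38 with an interval from -0.74 to -0.02, did not pass adjustment (0.302). Ppard (chr17:28232700-28301474), the broadly expressed PPAR, was at 26.5, 25.2 and 27.5 in WT RT, at 41.1, 39.8 and 36.7 in WT Cold and at 34.5, 31.6 and 38.8 in the third group. All cold libraries were above all WT RT libraries, a 1.52-fold rise in WT Cold (0.60 ± 0.08, 0.00242) and 1.34-fold in the third group (0.43 ± 0.10, 0.0115), the latter lost with scaling to library totals (0.101). Pparg, which holds the adipocyte state, was not called (0.23, -0.20 and 0.03). The share of Ppara in the summed RPKM of the PPARs was 27.4% ± 1.70 in WT RT, 18.3% ± 1.07 in WT Cold and 16.5% ± 1.49 in the third group, that of Pparg 69.4% ± 1.87, 77.2% ± 1.56 and 78.7% ± 0.93.

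Of the thyroid hormone receptors, Thra (chr11:98740638-98769006) was at 69.5, 61.0 and 69.9 scaled CPM in WT RT, at 41.9, 48.1 and 32.8 in WT Cold and at 52.4, 43.4 and 40.6 among the libraries labelled GCN2 KO Cold. The WT RT libraries were above all others. The fall was 1.61-fold in WT Cold (log2 fold change -0.69 ± 0.14, limma adjusted p = 0.00989) and 1.45-fold in the third group against WT RT (-0.53 ± 0.11, 0.00773). Thrb was not called (0.08, -0.07 and 0.01), and the share of Thra in the RPKM of the pair was 80.3% ± 3.25, 70.5% ± 5.03 and 73.7% ± 3.75. Thra shares 263 exon bases (5.70% of its exon length) with Nr1d1 on the other strand, a clock receptor that was itself lower (log2 fold change -1.55 in WT Cold and -1.82 in the third group against WT RT). The library kit is not stated to keep strand, so reads of that stretch cannot be told apart, and their part in the result was not tested.

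Nr1h3 (chr2:91184061-91202834), the oxysterol receptor LXR alpha, was at 73.7, 67.2 and 75.8 scaled CPM in WT RT, at 98.0, 111 and 93.7 in WT Cold and at 111, 127 and 110 among the libraries labelled GCN2 KO Cold. No cold library was as low as any WT RT library. The rise was 1.43-fold in WT Cold (log2 fold change 0.51 ± 0.09, limma adjusted p = 0.0053) and 1.63-fold against WT RT in the third group (0.71 ± 0.09, 8.74e-04). Its partner isotype Nr1h2, LXR beta, differed by 0.10, -0.02 and 0.08 and was not called, and the share of Nr1h3 in the LXR RPKM was 63.1% ± 0.95, 69.4% ± 1.86 and 72.5% ± 1.74.

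Of the 3 retinoic acid receptors and 3 RXRs, 0 were called in WT Cold vs WT RT by limma, edgeR or DESeq2, with 1 (Rarg) at an unadjusted p under 0.05, and limma called 2 in GCN2 KO Cold vs WT RT, where 34.2% of all genes were called. Rarg (chr15:102234938-102257517), one of 3 retinoic acid receptors, was at 17.6, 15.8 and 17.7 scaled CPM in WT RT, at 15.1, 13.2 and 10.7 in WT Cold and at 11.2, 11.9 and 9.79 among the libraries labelled GCN2 KO Cold. WT RT was above both cold groups, which overlapped. It was 1.53-fold lower in the third group than in WT RT (log2 fold change -0.61 ± 0.12, limma adjusted p = 0.00545), and its change in WT Cold was not called (-0.38, interval -0.71 to -0.04, 0.0878). Rara and Rarb were within 0.18 of 0 in all comparisons and were not called. Of the RXRs, Rxrg was called higher in the third group against WT RT (0.39 ± 0.11, 0.0281), a call that held in 2 of 6 fits with a library left out and was lost with library totals and without the mean-variance trend, while Rxra and Rxrb differed by at most 0.17 either way and were called only with library totals, lower in GCN2 KO Cold vs WT RT.

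**Figure D3:**
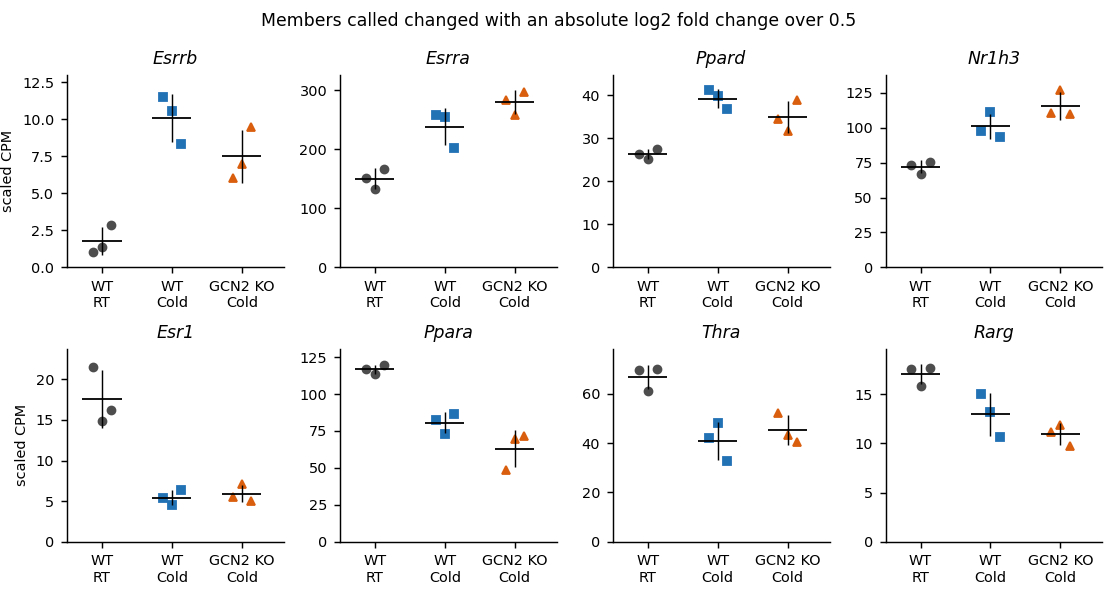
Scaled CPM (linear axis from 0) of the 8 members called in at least 1 comparison with an absolute log2 fold change over 0.5. Each point is a library, the horizontal line the mean and the vertical line the SD (n = 3). Esrrb, Esrra, Ppard and Nr1h3 are above WT RT in all 6 cold libraries, and Esr1, Ppara, Thra and Rarg are below it.

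Among the steroid receptors, the estrogen receptor alpha gene Esr1 (chr10:4611593-5005614) had the largest fall of any member. It was at 21.6, 14.9 and 16.3 scaled CPM in WT RT, at 5.33, 4.55 and 6.39 in WT Cold and at 5.55, 7.08 and 5.07 among the libraries labelled GCN2 KO Cold. The lowest WT RT library was above every cold library, and the cold groups overlapped. Esr1 fell 3.15-fold in WT Cold (log2 fold change -1.65 ± 0.19, limma adjusted p = 0.00103) and was 2.91-fold lower than WT RT in the third group (-1.54 ± 0.19, 7.78e-04), and the cold groups differed by 0.11 with an interval from -0.34 to 0.57. The markers of leukocytes and stroma were lower in the same libraries, 6 of 11 and 3 of 8 in WT Cold and 7 of 11 and 5 of 8 in the third group, with list medians of -0.997 and -0.29 in WT Cold, and their part in the fall of Esr1 was not tested. The 3 stromal calls in WT Cold became 1 without library B of either group or WT RT library C, and the 5 in the third group became 3 without WT RT library A. Sex is not among the labels and mice of both sexes were used in the study, so no comparison by sex was made.

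The glucocorticoid receptor gene Nr3c1 was among the most even of the members. Its log2 fold changes were -0.07 in WT Cold vs WT RT, with an interval from -0.25 to 0.11, 0.02 in GCN2 KO Cold vs WT Cold (-0.19 to 0.22) and -0.05 in GCN2 KO Cold vs WT RT (-0.26 to 0.16). With library totals, which shift the median of all genes by -0.20, the last became -0.26 (limma adjusted p = 0.0457). Nr3c2, the mineralocorticoid receptor, was lower in WT Cold at -0.37 ± 0.12 (limma adjusted p = 0.0476), a call lost with DESeq2 (0.0535), with all 3 groups in 1 fit (0.0835) and in all 6 fits that left out a library (0.0816 to 0.137). In GCN2 KO Cold vs WT RT it was at -0.48 ± 0.17 (0.0588) and was called with library totals (0.0149). Nr3c2 shares 247 exon bases (3.82%) with Gm10649 on the other strand, which was lower in WT Cold (-1.25, limma adjusted p = 0.00911), and the part of those reads was not tested. Vdr, the vitamin D receptor, varied widely, from 6.15 to 12.98 scaled CPM in WT RT, from 11.2 to 21.6 in WT Cold and from 8.69 to 20.8 in the third group, and was not called by limma (0.78, adjusted p = 0.104) unless WT Cold library C was left out (1.01, 0.0322).

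Of the orphan receptors, Nr2f6 was lower in WT Cold at 41.0, 41.9 and 40.8 scaled CPM than in WT RT at 50.05, 55.9 and 56.9, while the libraries labelled GCN2 KO Cold were at 49.2, 47.9 and 53.6. The log2 fold changes were -0.36 ± 0.08 (limma adjusted p = 0.0129), 0.28 ± 0.08 (0.18) and -0.08 ± 0.08 (0.478), and the third group did not overlap WT Cold, although the step between the cold groups did not pass adjustment. With library totals Nr2f6 was called lower in GCN2 KO Cold vs WT RT as well (-0.29, 0.0249). Nr2c2, the testicular receptor TR4, was at 12.4, 10.97 and 11.9 in WT RT, at 11.5, 10.8 and 11.5 in WT Cold and at 7.77, 9.67 and 7.87 in the third group. It was called against WT RT (-0.46 ± 0.13, 0.0298), although in 1 of 6 fits when a library was left out, and missed the threshold against WT Cold (-0.43 ± 0.13, 0.189). Exons of Nr2f6 are shared over 54.4% of their length with Ocel1 on the other strand, those of Nr2c2 over 30.7% with Mrps25, those of Nr1i3 over 74.9% with Tomm40l and those of Rarb over 34.1% with Top2b, so the values of these members are uncertain. Mrps25 was higher in the third group than in WT RT (0.49, 0.00758), and the part of shared reads in the values of Nr2c2 was not tested. The remaining members, Nr2c1, Nr2f1, Nr2f2, Nr5a2, Nr6a1, Rora and Rorb, were not called, with log2 fold changes from -0.42 (Nr2f1 in GCN2 KO Cold vs WT Cold) to 0.33 (Nr2f2 in WT Cold vs WT RT).

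Receptors best known from liver were listed at low to moderate levels beside transcripts of liver itself. The sum of 4 hepatocyte markers (Alb, Apoa1, Ttr and Serpina1a) was 2755, 2057 and 2423 scaled CPM in WT RT, 1007, 1789 and 4818 in WT Cold and 1682, 3373 and 3780 among the libraries labelled GCN2 KO Cold. Nr1h4, the bile acid receptor FXR, was at 9.35, 6.61 and 6.9998, at 4.41, 7.80 and 10.1 and at 8.31, 10.6 and 11.1 in the same libraries. Within each group its libraries stood in the same order as the liver sum. Nr1i3, the xenobiotic receptor CAR, was at 4.80, 3.95 and 3.50, at 2.48, 3.35 and 5.68 and at 4.59, 5.17 and 6.31, and Nr0b2, the corepressor SHP that FXR induces, at 0.73, 0.72 and 0.49, at 0.033, 0.41 and 1.23 and at 0.54, 0.71 and 0.9986. Both followed the liver sum in order within the cold groups and not within WT RT. Nr5a2, the liver receptor homolog LRH-1, was also lowest of all 9 libraries in WT Cold library A, at 2.32 scaled CPM. Hnf4a, a master regulator of hepatocytes, did not follow the liver sum, at 35.7, 38.1 and 23.1, at 39.3, 52.1 and 46.7 and at 58.2, 34.0 and 52.0. Hnf4a differed by 0.57 in WT Cold vs WT RT (interval 0.11 to 1.02, limma adjusted p = 0.0675, DESeq2 0.0288) and by 0.60 in GCN2 KO Cold vs WT RT (interval 0.05 to 1.15, limma 0.0899, DESeq2 0.0311). Nr1h4, Nr1i3, Nr0b2 and Hnf4a were not called by limma in any comparison, and the part of liver RNA in their levels was not tested.

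**Figure D4:**
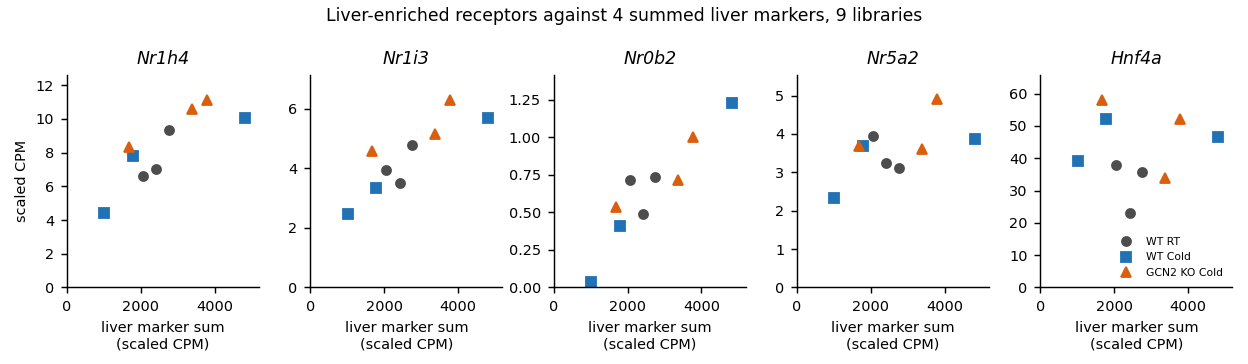
Scaled CPM of 5 liver-enriched receptors (vertical axes, from 0) against the sum of 4 liver markers in scaled CPM (horizontal axes), 1 point per library. Nr1h4, Nr1i3, Nr0b2 and Nr5a2 are lowest in the WT Cold library with a marker sum of 1007, and Hnf4a is not.

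Coactivators, which receptors recruit to open chromatin, included changes as large as those of Esrrb. Of 18 coactivators, 5 were higher and 1 lower in WT Cold vs WT RT, against 13.6% and 14.1% of all genes called in those directions. Ppargc1a, which encodes PGC-1 alpha, rose by a log2 fold change of 2.70 ± 0.26 (limma adjusted p = 5.4e-04) and Perm1, a regulator induced by PGC-1 and ERRs, by 2.12 ± 0.25 (0.00118). The acetyltransferase gene Crebbp was also higher (0.75) and Kat2b lower (-0.55). Ppargc1a did not differ detectably between the cold groups (0.06 ± 0.42, 0.962). There 0 of 18 coactivators were called by limma, edgeR or DESeq2, against 0.405%, 0.27% and 3.29% of all genes. At an unadjusted limma p under 0.05 there were 4, against 15.3% of all genes. Among 11 corepressors, 2 were higher and 1 lower, each by less than 0.5 on the log2 scale, which became 1 and 2 with library totals and 0 and 1 without WT Cold library B, WT RT library A or WT RT library C. In GCN2 KO Cold vs WT RT, in which 16.4% of all genes were called higher and 17.8% lower, the counts were 5 and 3 for coactivators and 0 and 3 for corepressors, and scaling to library totals turned them to 3 and 5 and to 0 and 5, so the balance of directions depends on the scaling. Leaving out GCN2 KO Cold library A, WT RT library A or WT RT library B lowered the coactivators called in that comparison from 8 to 5, 4 and 5.

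Known targets of the receptors were counted in the same way. Glucocorticoid-responsive genes were mostly higher while Nr3c1 itself was not called, with 13 of 18 higher and 0 lower in WT Cold vs WT RT and a median log2 fold change of 1.22. All 13 were also past the fold threshold, against 2.99% of all genes. Fkbp5, the receptor's cochaperone, rose by 2.52 ± 0.15 (limma adjusted p = 1.02e-04), the cell cycle inhibitor Cdkn1a by 2.21 ± 0.13 and the transcription factor Zbtb16 by 2.26 ± 0.26. In GCN2 KO Cold vs WT RT, 14 were higher and 1 lower, against 16.4% and 17.8% of all genes. The list of glucocorticoid supply and chaperones had 3 of 8 genes higher and 2 lower in WT Cold, against 13.6% and 14.1% of all genes. The higher ones were Fkbp5, already counted above, Hsp90aa1 (0.85 ± 0.23, limma adjusted p = 0.0291) and Abcb1a (0.83 ± 0.25, 0.0407). Hsd11b1, which regenerates the active steroid, was lower (-0.89 ± 0.17, 0.0081), as was the chaperone gene Fkbp4 (-0.31 ± 0.09, 0.0332). With 1 library left out, 2 to 6 genes were called, the fewest without WT Cold library A or WT RT library A. Several of these genes also answer to other signals, and the list says nothing on which one acted.

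In WT Cold vs WT RT 13.6% of all genes were called higher and 14.1% lower, and in GCN2 KO Cold vs WT RT 16.4% and 17.8%. ERR targets were mostly genes of respiration and energy transfer, with 9 of 16 higher and 0 lower in WT Cold. With library totals these became 6 and 0. In GCN2 KO Cold vs WT RT, 8 were higher and 1 lower. The list holds Esrra itself, without which the counts were 8 of 15 and 0, and 7 and 1. Leaving out 1 library at a time gave 4 to 9 called genes in WT Cold vs WT RT, the 4 without library A or B of either group. Their median was 0.30 and, apart from Perm1, none was past the fold threshold in WT Cold. The one lower gene, Ckmt2, a mitochondrial creatine kinase of muscle, fell by 1.77 in the third group, in which skeletal muscle markers were also lower, 11 of 12 against WT RT by limma, 7 by edgeR and by DESeq2, and 4, 6 and 6 by limma without WT RT library A, B or C, and their part in its fall was not tested. PPAR targets were higher in 7 of 30 and lower in 0 in WT Cold, led by the glycerol kinase gene Gk (2.49 ± 0.10), Acot1 (1.77 ± 0.25) and the fatty acid carrier Fabp3 (1.70 ± 0.12). Without WT Cold library C, which had the highest sum of liver markers, 6 were higher and 8 lower, and the part of liver RNA in these calls was not tested. Pdk4, a classical PPAR alpha target, was not called in WT Cold (-0.29 ± 0.21, adjusted p = 0.338 by limma) and was lower in the third group than in WT RT (-0.79 ± 0.17, 0.00902). In that comparison, 11 PPAR targets were higher and 3 lower, which library totals turned to 9 and 8.

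Thyroid hormone targets split, 4 of 10 higher and 3 lower in WT Cold, against 13.6% and 14.1% of all genes. In the hormone supply list, 1 of 6 was higher and 1 lower, near those shares. The higher one was Dio2, the deiodinase that makes the active hormone, and the lower one Thrsp, which is a responsive gene rather than a supplier. Dio2 rose by 3.63 ± 0.24 (limma adjusted p = 1.38e-04) and Ucp1 by 1.02 ± 0.16 (0.00344), whereas Thrsp fell by 2.66 ± 0.10 (2.12e-05) and the malic enzyme gene Me1 by 1.59 ± 0.13, the latter pair being genes of fat synthesis. Thrsp was the one gene of all target lists called by limma in GCN2 KO Cold vs WT Cold, higher by 0.79 ± 0.11 (0.0439). That call was lost in all 6 fits that left out a library and with library totals (0.0633). It was kept by edgeR (adjusted p = 0.0446) and DESeq2 (2.18e-07). Among the target lists DESeq2 called 2 thyroid, 2 PPAR and 1 ERR target higher in that comparison, and 1 ERR and 1 LXR target lower. Over all genes it called 3.29%. LXR targets split as well, with 4 of 12 higher and 4 lower in WT Cold, against the same shares of all genes. Nr1h3 is itself in that list and 1 of the 4, leaving 3 of 11 higher without it. The sterol exporter Abca1 (-0.67 ± 0.12), the lipogenic factor Srebf1 (-1.23 ± 0.15) and the desaturase Scd1 (-1.29 ± 0.24) were lower, and Mylip (0.81 ± 0.15) was higher. The counts for LXR targets in GCN2 KO Cold vs WT RT were 5 and 5, against 16.4% and 17.8% of all genes, and 2 and 6 with library totals.

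Retinoid genes were called in both directions, with counts in WT Cold near the shares of all genes, 13.6% higher and 14.1% lower. RAR targets were 2 of 9 higher and 2 lower in WT Cold, with the retinoic acid hydroxylase Cyp26b1 lower (-1.30 ± 0.38, limma adjusted p = 0.0395), and the supply list 1 of 14 higher, the retinol dehydrogenase gene Dhrs9 (2.09 ± 0.56, 0.0287), and 2 lower. The calls in WT Cold were not stable, since edgeR did not call Cyp26b1 (0.0547), the RAR list had 2 higher and 0 lower without library A of either group, WT Cold library B or WT RT library C, and the supply list had 0 called without WT Cold library A, WT Cold library B or WT RT library C and 1 without WT RT library A. In GCN2 KO Cold vs WT RT the RAR targets were 2 higher and 2 lower and the supply list 1 and 3, against 16.4% and 17.8% of all genes. Cyp26b1 (-1.34 ± 0.24, limma adjusted p = 0.00367) and Dhrs9 (1.998 ± 0.474, 0.0128) were called there by limma, edgeR and DESeq2, with library totals and in all fits that left out a library (at most 0.0169 and 0.0392). Among CAR targets, Cyp2b10, the cytochrome that CAR controls in liver, rose by 4.50 ± 0.28 (1.19e-04) and by 4.31 ± 0.29 against WT RT in the third group (9.5e-05), with the other 9 genes of the list giving 0 higher and 1 lower in WT Cold, the lower one lost without library A of either group, WT Cold library B or WT RT library C. Nr1i3 itself was not called, at -0.13 ± 0.30 in WT Cold and 0.42 ± 0.20 in the third group, each against WT RT. The 4 genes of the FXR and SHP axis and the 3 of the vitamin D axis had 0 calls in all comparisons by limma, edgeR and DESeq2, with 0 and 1 at an unadjusted p under 0.05 in WT Cold vs WT RT. Without WT Cold library C, however, all 3 genes of the vitamin D axis were called lower by limma in that comparison, as were all 4 liver markers, and without GCN2 KO Cold library A 1 of the 3 was called higher in GCN2 KO Cold vs WT RT. Of 9 other nuclear receptors, 1 was higher and 2 lower in WT Cold, near the 13.6% and 14.1% of all genes. The higher one was Nr4a3, the largest receptor change, at 3.19 ± 0.33 (limma adjusted p = 7.5e-04). The lists overlap, 14 of their 163 tested genes standing in more than 1 (among them Ucp1, Thrsp, Klf9, Fkbp5, Perm1, Dio2, Hr, Cyp26b1 and Dhrs3), and 4 members, Esrra, Nr1h3, Rarb and Nr0b2, stand in a target list, so the counts are not independent of each other or of the members.

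**Figure D5:**
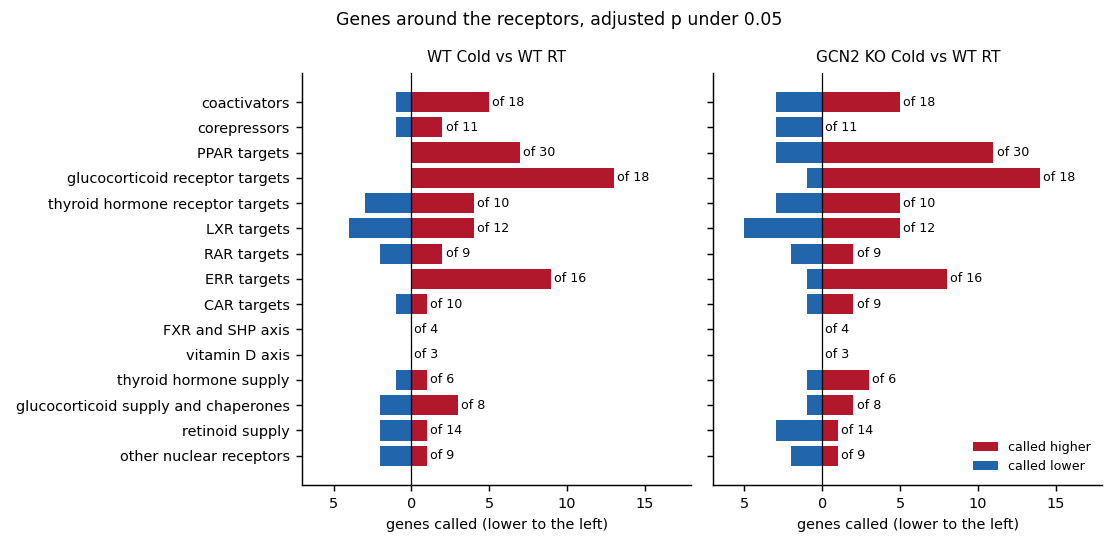
Genes called higher (red, to the right) and lower (blue, to the left) at a limma adjusted p under 0.05 in 15 lists of receptor partners, targets and ligand supply, for both comparisons with WT RT. The number beside each bar is the number tested. Glucocorticoid receptor targets have the most calls, 13 of 18 and 14 of 18 higher.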

How the data were processed

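Poly(A) RNA libraries were made from the brown fat of 9 mice. Per the submitters' processing notes, the authors trimmed reads (Trimmomatic 0.36), aligned them with STAR 2.5.2b to GRCm39, counted them per gene with featureCounts (Subread 1.5.2) and used DESeq2. Each of the 3 deposited tables covers 1 comparison and holds, for 6 libraries, a signal, the reads counted per gene over a DESeq2 size factor particular to the table. The tables also hold the authors' log2 fold changes, p-values and adjusted p-values, which were not used. Library codes were tied to groups by the tables they occur in, not to mice, and 0 columns were left unmapped. The title of 1 sample of the third group names both genotypes, and its group was taken from the genotype field.

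Whole reads were recovered for 100% of values (tolerance 0.01). The main test was limma 3.58.1 (R 4.3.3) with a mean-variance trend on log2(normalized count + 1), 2 groups per fit, with Benjamini-Hochberg adjustment over the table. Fold changes are on that log2 scale. Alternatives were edgeR 4.0.16, DESeq2 1.42.0, other scalings, pseudocounts of 0.5 and 5, filters at mean counts of 10 and 50, no trend, 3 groups in 1 fit and each library left out. The test was also run on simulated counts. Those held far fewer changed genes than were called in the comparisons with WT RT, so they do not check the test in that setting. Nothing in the labels ties replicates to cultures or litters, so p-values measure the spread between these libraries.

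Every listed member is named; values per library are given for members called with an absolute log2 fold change over 0.5. From each list, 6 set genes and up to 3 rises and 3 falls among called genes with a mean count of at least 50 could be named. Members and lists were chosen with earlier results of these data known. Gene coordinates are GENCODE M21 (GRCm38), in which 16900 of 16937 identifiers were found. Upstream sequences are RefSeq GRCm38.p6.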

Additional observations from a re-analysis of the deposited data

How the results depend on the processing

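No call or called direction among the members was reversed under any alternative. Scaling to library totals moved the median of all genes by -0.08, -0.12 and -0.20 log2 in the comparisons of temperature, of genotype and of both at once, and the share of calls that were higher from 49.0 to 35.1%, from 43.9 to 17.5% and from 48.0 to 23.6%; the members' median became -0.028, -0.19 and -0.21. With 1 library left out at a time, members called numbered 8 to 9, 0 and 8 to 10, members past the fold threshold 2 to 3, 0 and 2 to 3, and the members' median ran from -0.010 to 0.11, from -0.080 to -0.020 and from -0.0493 to 0.0569. Of the called members, Nr3c2, Rxrg, Nr2c2 and Ppard lost their call under at least 1 alternative, as given with their values. No paired analysis was possible because the columns carry no replicate numbers. Depth was similar across libraries, and the widest interval was that of Nr0b2, with few reads. The third member past the threshold was Vdr without WT Cold library C (1.01) in WT Cold vs WT RT, and in GCN2 KO Cold vs WT RT Esrra without WT RT library C (1.0003) and Ppara with library totals (-1.09).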
